A study of Mus musculus with 30 samples.

Results

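The AIM2-like genes, also called the p200 or HIN-200 family, were followed here across interferon and STING agonist treatment of 2 mouse tumor cell lines. The members were fixed by name and were 10 of the 49315 genes counted: Aim2, Ifi202b, Ifi203, Ifi204, Ifi205, Ifi207, Ifi209, Ifi211, Ifi213 and Mndal. All lie in one stretch of 680932 bases on mouse chromosome 1 (build GRCm38, chr1:173350879-174031810). B16F10, a C57BL/6 melanoma line (labelled B16), and 6694c2, a pancreatic ductal adenocarcinoma line (labelled C2), were treated in culture for 24 h, and polyadenylated RNA was sequenced in paired-end mode. The 6694c2 line is also labelled C57BL/6 and came from mice with Pdx-cre, in which the Pdx promoter of pancreatic progenitors drives Cre, a YFP-floxed reporter and p53+/floxed. Each line was given 225 μg/mL of STING agonist, 1000 U/mL of IFNβ, 100 ng/mL of IFNγ or vehicle, with 3 libraries in each of the 8 groups. The content of the vehicle is not stated in the sources used here, and nothing in the labels says that the 3 libraries of a group came from separate cultures, so every p-value measures the spread between these libraries only.

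Proteins of this family carry a HIN domain that binds DNA, and most also carry a pyrin domain through which they join other proteins. AIM2 is the receptor that detects double-stranded DNA in the cytosol and builds an inflammasome with the adaptor ASC (gene Pycard) and caspase-1, whereas the Ifi204 product p204 has been linked to DNA sensing upstream of STING and the Ifi202b product lacks a pyrin domain and opposes AIM2. The family takes its Ifi names from its response to interferon. Type I interferons such as IFNβ act through a complex that holds STAT2 and IRF9 and binds the interferon-stimulated response element (ISRE), and IFNγ acts through the gamma-activated site (GAS).

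The promoters of the members were read for the letters of both elements, because the treatments act through them. RefSeq promoter windows on GRCm38.p6, covering 250 bases before and 50 bases after the annotated start site, were matched by symbol for 9 of the 10 members (not Ifi204) and for 3 of the 4 other p200 genes of the cluster (Ifi206, Ifi208 and Ifi214). The ISRE was searched as GAAA, then any 2 bases, then GAAA again, and the GAS as TTCNNNGAA, each on both strands. ISRE letters stood in the windows of 6 of the 9 members, against 3.44% of 32851 promoter windows in the mouse and 3.99% of 27025 genes. GAS letters were in 1 member, Ifi202b, at position -148 from the start, against 8.3% of windows, and the matches of the elements did not overlap in any member. Aim2 and Ifi209 held neither. The Aim2 window lies inside the counted gene (chr1:173350879-173466040, plus strand), so the 5′ end of that gene was not read. The RefSeq windows of Mndal also lie inside its counted gene (chr1:173857220-173942491, minus strand). The 5′ end of counted Mndal falls instead in an Ifi203 window (chr1:173942443-173942742). A letter match is a description and says nothing of binding.

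The stretches around the ISRE letters are shown because 6 of the 9 members with a window hold them, with the stretches of Ifi209 and Aim2, which do not, for contrast. Each runs 5′ to 3′ on the strand of its gene. Capitals mark the ISRE letters, and in Ifi209 they mark the 10 bases at the place of the match in its near copy Ifi214. The stretches were Ifi213 at chr1:173599311-173599370 (minus strand, match at -73), Ifi207 at chr1:173741816-173741875 (minus, -41), Mndal at chr1:173880189-173880248 (minus, -36), Ifi211 at chr1:173913049-173913108 (minus, -37), Ifi205 at chr1:174031855-174031914 (minus, -134), Ifi214 at chr1:173536002-173536061 (minus, -79), Ifi209 at chr1:173630755-173630814 (plus) and Aim2 at chr1:173420544-173420603 (plus, the 60 bases before its RefSeq start).
Ifi213: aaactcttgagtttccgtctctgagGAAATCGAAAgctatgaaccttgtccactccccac
Ifi207: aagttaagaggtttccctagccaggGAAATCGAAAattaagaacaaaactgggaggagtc
Mndal: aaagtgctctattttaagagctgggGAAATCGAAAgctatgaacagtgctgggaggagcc
Ifi211: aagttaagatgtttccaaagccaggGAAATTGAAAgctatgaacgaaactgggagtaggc
Ifi205: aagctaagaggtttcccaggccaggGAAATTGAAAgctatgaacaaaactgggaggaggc
Ifi214: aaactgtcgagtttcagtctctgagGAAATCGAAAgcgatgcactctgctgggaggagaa
Ifi209: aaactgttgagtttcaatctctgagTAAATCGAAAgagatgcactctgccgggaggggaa
Aim2: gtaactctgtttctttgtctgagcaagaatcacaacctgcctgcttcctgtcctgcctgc

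The same 60 bases as in Mndal stood before Ifi203 (chr1:173942493-173942552, match at -35), identical in 60 of 60 letters, and the Ifi213 stretch was identical in 60 of 60 letters before Ifi208. Ifi211 and Ifi205 had 54 of 60 letters in common, and Ifi207 had 52 of 60 in common with Ifi205. The Ifi209 stretch had 54 of 60 letters in common with Ifi214 and differed from the Ifi214 match by the single substitution G1T, counted from 1 at the first of the 10 capital letters. Mndal held a further match at -54 of its other window and Ifi205 one at 24 after its start, and 1 of the 2 Ifi203 windows held its match.

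**Figure D1:**
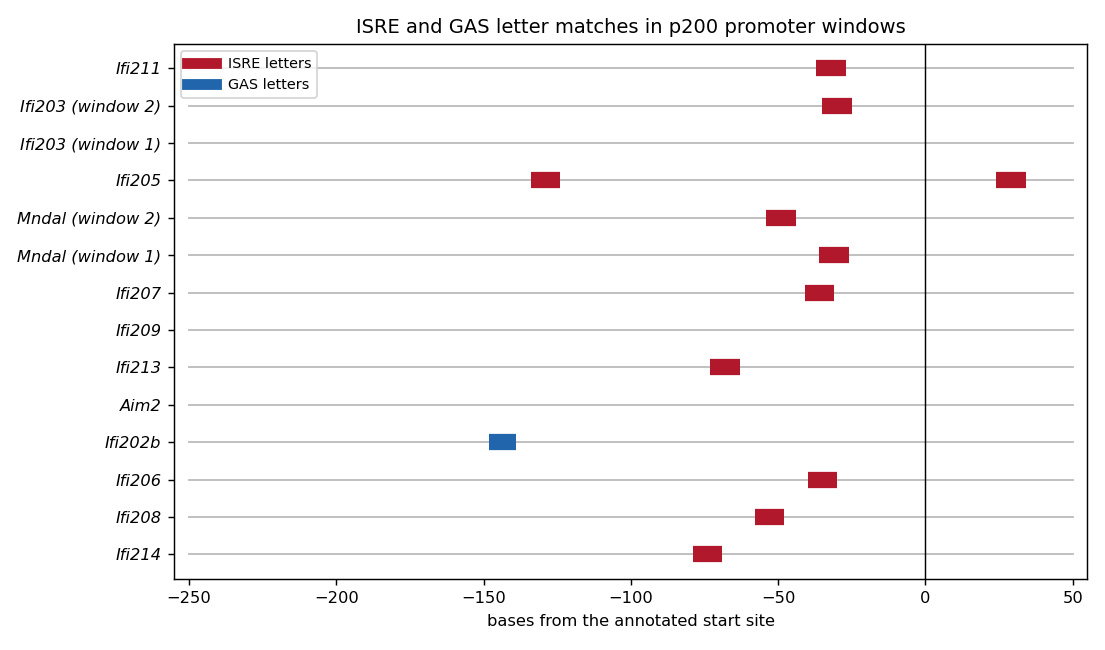
Positions of the ISRE letters (red) and GAS letters (blue) in the RefSeq promoter windows of the p200 genes, with bases from the annotated start site on the horizontal axis and 1 line for each window. ISRE letters sit between -134 and 24 in the 6 members that hold them, and the Aim2 and Ifi209 lines are empty.

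Reads on genes ranged from 15543131 to 32266795 per library. The melanocyte markers (7 genes) summed to between 14680 and 18540 CPM (counts per 1000000 reads on genes) in B16F10 and to at most 129 CPM in 6694c2, and the epithelial markers (7 genes) summed to between 12800 and 15090 CPM in 6694c2, so each line carried the markers of its tissue of origin. The 12 leukocyte markers, of the cells in which this family is usually studied, summed to between 14.5 and 26.96 CPM in B16F10 and between 48.1 and 78.0 CPM in 6694c2. Transcripts specific to one line were also found at a low level in libraries of the other: the median level of 6694c2-specific genes in B16F10 libraries was 0.186 to 0.257% of their own level with vehicle, up to 0.416% with IFNγ, up to 0.649% with IFNβ and 0.947 to 1.18% with STING agonist. For B16F10-specific genes in 6694c2 libraries it was 0.511 to 0.566% with vehicle, 0.275 to 0.857% with IFNγ, 0.213 to 0.325% with IFNβ and 0.196 to 0.269% with STING agonist. Line-specific genes were those with at least 50 CPM in vehicle of their own line and under 2% of that in vehicle of the other. The vehicle values were thus bound to be under 2% by that choice.

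Of the 10 members, Ifi202b had too few reads in both lines, with 9 reads over the 24 libraries and at most 2 in any one, so its counts allow no direction and it was not tested. Ifi213, with 50 reads in B16F10 and 546 in 6694c2, and Ifi209, with 220 and 1342, were the next lowest. Aim2 had 464 reads in B16F10 and 1927 in 6694c2. The most read members were Ifi204, with 57709 reads over the 24 libraries, and Ifi211, with 46330. Because the family arose by duplication, reads can fit several members. Of the 100-base stretches of the Ifi211 transcripts, 56.9% also occurred in another gene, chiefly Ifi205 and Ifi204, and the share was 16.9% for Ifi209 (all with Ifi214), 15.04% for Ifi205, 10.7% for Ifi204, 6.38% for Mndal and under 4% for Ifi213, Ifi203, Ifi207 and Aim2. Over 50-base stretches the share was 72.8% for Ifi211, 19.6% for Mndal, 15.6% for Ifi213 (chiefly with Ifi208), 12.4% for Ifi203 (chiefly with the pseudogene Ifi203-ps) and 7.29% for Ifi207. How reads with several matches were counted is not given in the sources used here, so the split of reads between Ifi211, Ifi205, Ifi204 and Mndal and between Ifi209 and Ifi214 is uncertain. To a lesser degree, so is the split between Ifi213 and Ifi208 and between Ifi203 and Ifi203-ps. Mndal and Ifi203 also overlap by 37 exon bases on the same strand.

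**Figure D2:**
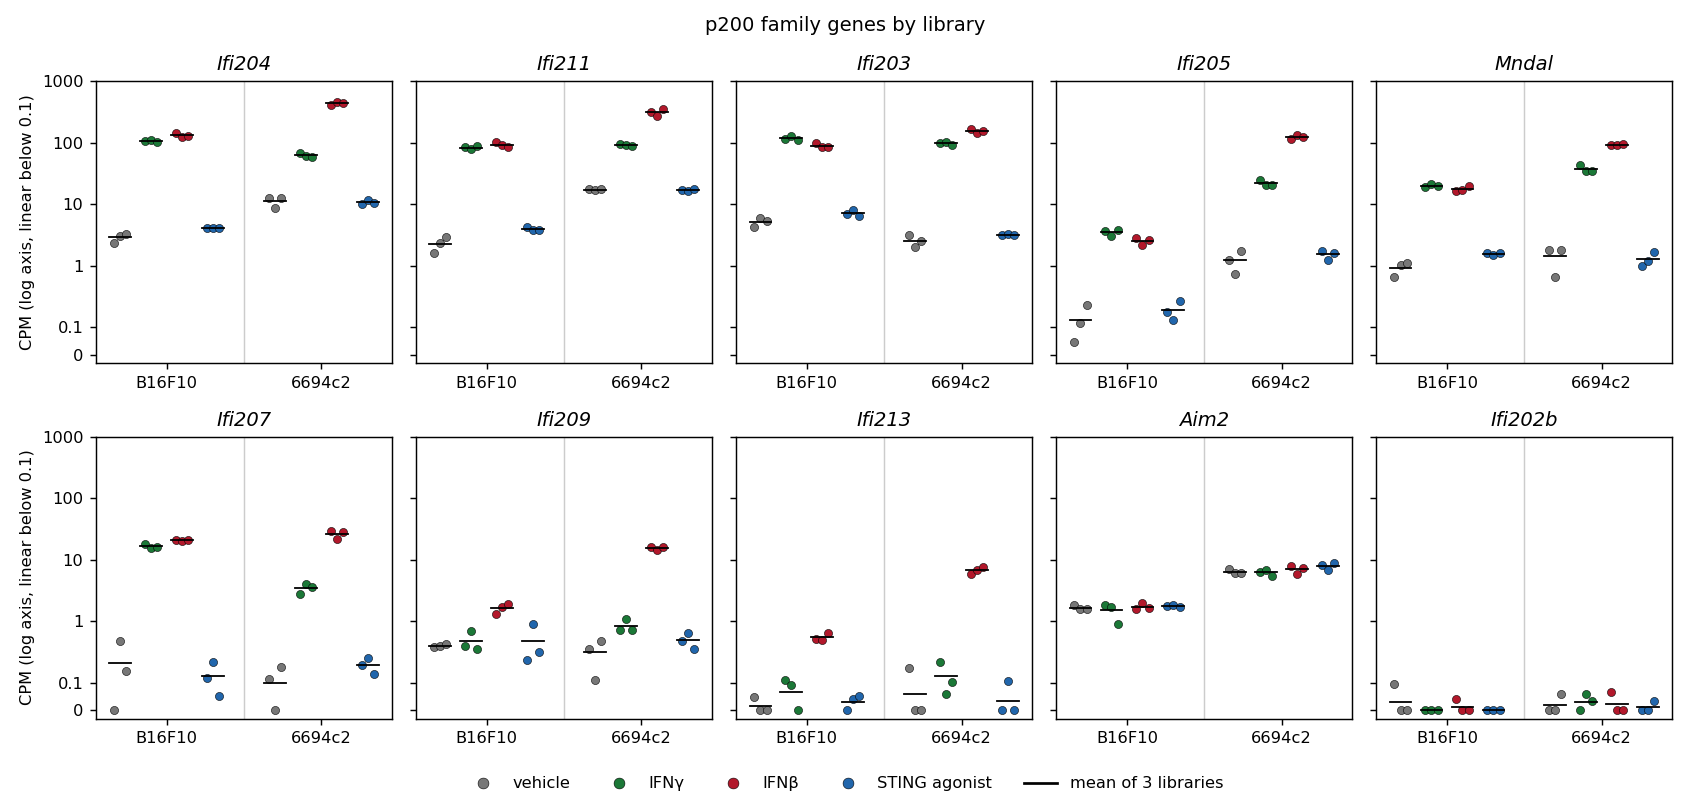
CPM of each of the 10 members in each of the 24 libraries, on a vertical log axis that is linear below 0.1, with a point for each library, colours for the treatments and a bar for the mean of 3. Aim2 stays at one height within each line, Ifi202b sits at or near 0, and the other members stand far higher with IFNβ than with vehicle.

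In vehicle, the lines differed in which members they held. Aim2, the inflammasome receptor, had 1.87, 1.56 and 1.60 CPM in the B16F10 libraries and 7.003, 6.08 and 6.16 CPM in those of 6694c2. Every 6694c2 library was above every B16F10 library, and Aim2 was higher in 6694c2 by 1.94 ± 0.19 (SE) on the log2 scale (edgeR adjusted p = 1.11e-11). Ifi204 was also higher in 6694c2, by 1.94 ± 0.14 (edgeR adjusted p = 2.97e-16), from 2.34, 3.09 and 3.25 CPM in B16F10 to 12.6, 8.76 and 12.6 CPM. Ifi211 showed a wider gap of 2.89 ± 0.13 (edgeR adjusted p = 3.64e-22), between 1.63, 2.37 and 2.89 CPM and 17.6, 16.7 and 17.7 CPM. Ifi205, which was at 0.134 ± 0.0942 CPM (SD, n = 3) in B16F10 and 1.24 ± 0.521 CPM in 6694c2, was higher by 3.08 ± 0.43 (edgeR adjusted p = 4.03e-08), and by 3.69 without replicate 3 of the B16F10 vehicle libraries.

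Ifi203 went the other way and was lower in 6694c2 by 1.02 on the log2 scale (SE 0.17, edgeR adjusted p = 9.91e-07), with 4.26, 5.98 and 5.28 CPM in B16F10 against 3.21, 2.01 and 2.50 CPM. In all, 5 of the 9 tested members differed between the vehicle groups, 4 higher and 1 lower in 6694c2, and 58% of the 21138 genes tested differed as well (28.7% higher and 29.3% lower in 6694c2), so a difference between the lines was common among all genes. Ifi207, Ifi209 and Ifi213 were each below 0.5 CPM on average in both lines and were not called. Mndal, at 0.936 ± 0.232 CPM (SD, n = 3) in B16F10 and 1.44 ± 0.664 CPM in 6694c2, was not called (difference 0.58, edgeR adjusted p = 0.0915), and it was called without replicate 2 of the 6694c2 vehicle libraries (0.93, edgeR adjusted p = 0.00424) and with the replicate numbers as a block (0.77, edgeR adjusted p = 0.0297). Ifi207 was called lower in 6694c2 without replicate 1 of the B16F10 vehicle libraries (-1.70, edgeR adjusted p = 0.0497).

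IFNβ, a type I interferon, raised 8 of the 9 tested members in B16F10 and 8 of 9 in 6694c2. Aim2 was the tested member that was not called in either line. Of all genes tested, 12.7% were called higher with IFNβ in B16F10 and 10.4% in 6694c2. The median log2 fold change over the 9 members was 4.23 in B16F10 and 5.95 in 6694c2, beside a median over all genes of 0.02 in B16F10. Summed over the family, the level went from 13.8 ± 2.11 to 357 ± 26.7 CPM (SD, n = 3) in B16F10, a ratio of 25.9, and from 40.8 ± 4.94 to 1173 ± 44.9 CPM in 6694c2, a ratio of 28.8. Markers of the other line moved as well: in B16F10, 6 of the 7 epithelial markers were called higher with IFNβ (median 1.04 on the log2 scale), with summed levels of 17.3 to 52.5 CPM against 13.7 to 19.5 CPM in vehicle, and in 6694c2, 6 of the 7 melanocyte markers were called lower (median -1.28), with 26.8 to 39.9 CPM against 83.9 to 87.2 CPM. Their part in the result was not tested. In such bulk libraries, fewer cells that express a gene and less of its RNA in each cell cannot be told apart.

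Aim2 stood at 1.57, 1.99 and 1.66 CPM with IFNβ in B16F10 and at 7.89, 5.79 and 7.26 CPM in 6694c2. These values overlapped those of vehicle in both lines. The log2 fold change was 0.07, with a 95% interval of -0.46 to 0.60, in B16F10 (edgeR adjusted p = 0.93) and 0.16, with an interval of -0.12 to 0.45, in 6694c2 (edgeR adjusted p = 0.533). A rise of Aim2 as large as that of any other tested member lay outside those intervals.

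Ifi204, linked to DNA sensing through STING, had 145, 122.5 and 126 CPM with IFNβ in B16F10 and 412, 449.5 and 442 CPM in 6694c2. All libraries lay far above those of vehicle, and the log2 fold changes were 5.49 ± 0.094 (SE, edgeR adjusted p = 7.85e-197) and 5.31 ± 0.099 (edgeR adjusted p = 2.56e-36). Ifi211 reached 101, 92.3 and 84.5 CPM in B16F10 and 313, 272 and 349 CPM in 6694c2. Its log2 fold change was 5.32 ± 0.10 in B16F10 (edgeR adjusted p = 3.7e-178) and 4.20 ± 0.086 in 6694c2 (edgeR adjusted p = 6.49e-35), the smaller one in the line that held more Ifi211 in vehicle.

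Ifi203, which encodes a nuclear p200 protein, had 98.3, 83.7 and 83.8 CPM in B16F10 and 168, 142 and 155 CPM in 6694c2, which made log2 fold changes of 4.09 ± 0.089 (edgeR adjusted p = 4.76e-161) and 5.95 ± 0.11 (edgeR adjusted p = 4.27e-36). Mndal, whose name marks its likeness to the human gene MNDA, had 16.4, 17.3 and 19.8 CPM and 91.4, 92.3 and 96.0 CPM. It rose by 4.23 ± 0.16 in B16F10 (edgeR adjusted p = 3.42e-87) and by 6.07 ± 0.16 in 6694c2 (edgeR adjusted p = 3.26e-31). Both genes therefore ended higher in 6694c2 than in B16F10, although Ifi203 had started lower there.

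Ifi205 had 2.79, 2.15 and 2.67 CPM in B16F10 and 115, 132 and 122 CPM in 6694c2. Both groups stood above vehicle, with log2 fold changes of 4.14 ± 0.40 (edgeR adjusted p = 4.72e-21) and 6.68 ± 0.14 (edgeR adjusted p = 4.79e-34). The value in B16F10 was 4.79 without replicate 3 of its vehicle libraries. In B16F10, the share of 6694c2-specific transcripts found in those libraries (mean 0.437%), applied to the Ifi205 level of 6694c2 with IFNβ, would come to 0.539 CPM, or 21.3% of the B16F10 value, and its part in that value was not tested. For the other members the same figure was at most 5.3%. In B16F10 vehicle, the share found there, applied to the same level, would come to 0.285 CPM of Ifi205 beside 0.134 measured. Its part in the fold change was not tested.

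Ifi207 was close to 0 in vehicle, with 0, 0.481 and 0.156 CPM in B16F10 and 0.117, 0 and 0.183 CPM in 6694c2, and IFNβ took it to 21.1, 19.97 and 20.7 CPM and to 29.4, 21.4 and 28.2 CPM. The log2 fold change in B16F10 was 6.5 ± 0.21 (edgeR adjusted p = 2.81e-106), on 16 reads in vehicle against 1556 with IFNβ, a CPM ratio of 91.9 with an exact 95% counting interval of 56.4 to 161. It was 7.83 without replicate 2 of the B16F10 vehicle libraries. In 6694c2 it was 8.04 ± 0.28 (edgeR adjusted p = 2.48e-26), which rests on 5 reads in vehicle against 2121 with IFNβ, a CPM ratio of 275 with an interval of 118 to 849, and it was 7.45 without replicate 2 and 8.76 without replicate 3 of the 6694c2 vehicle libraries. Such intervals cover counting error only. The share of the other line in vehicle, applied to its IFNβ level, would come to 0.110 CPM of Ifi207 in 6694c2, beside 0.0999 measured. In B16F10 it would come to 0.0610 CPM beside 0.213, and its part in these ratios was not tested.

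Ifi209 and Ifi213, both low in vehicle, reached higher levels in 6694c2 than in B16F10 with IFNβ. Ifi209 went from 0.383, 0.401 and 0.430 CPM to 1.33, 1.73 and 1.94 CPM in B16F10 and from 0.350, 0.112 and 0.488 CPM to 15.9, 14.3 and 16.2 CPM in 6694c2. It rose by 2.03 ± 0.41 on the log2 scale in B16F10 (edgeR adjusted p = 1.43e-05) and by 5.65 ± 0.25 in 6694c2 (edgeR adjusted p = 1.6e-22). Ifi213 had 1 read over the 3 vehicle libraries of B16F10 and 13, 13 and 16 reads with IFNβ, a CPM ratio of 39.7 (exact 95% counting interval 6.74 to 1604, edgeR adjusted p = 0.0001). In 6694c2 it had 3 reads in vehicle and 175, 151 and 206 with IFNβ, a ratio of 115 (39.2 to 560, edgeR adjusted p = 1.01e-15). No IFNβ library overlapped a vehicle library for either gene.

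**Figure D3:**
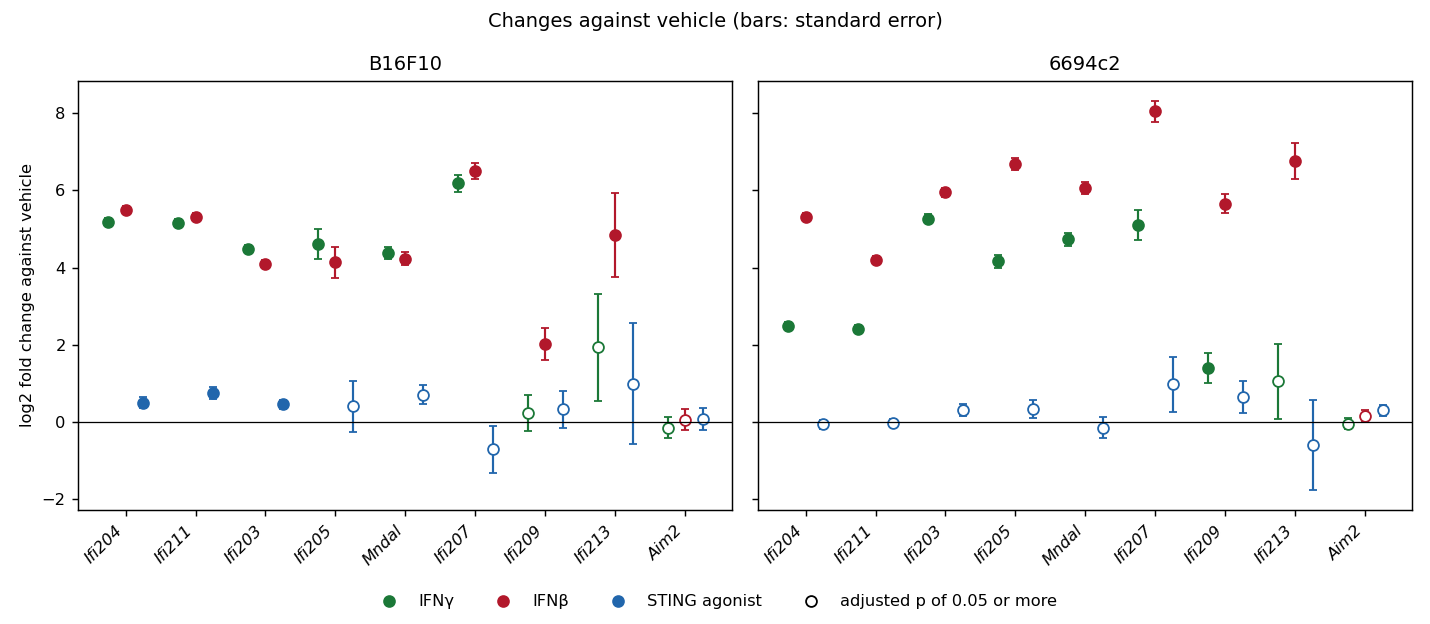
Log2 fold change against vehicle of the 9 tested members in B16F10 and 6694c2, with colours for the treatments, bars for the standard error and open points where the edgeR adjusted p was 0.05 or more. Aim2 lies near 0 under every treatment, IFNβ points lie above 2 for the other members, and the STING agonist points lie between -0.70 and 0.997.

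IFNγ raised 6 of the 9 tested members in B16F10, where 12% of all genes were called higher, and 7 of 9 in 6694c2, where 7.89% were. The members that rose in both lines were Ifi203, Ifi204, Ifi205, Ifi207, Ifi211 and Mndal, and the other one in 6694c2 was Ifi209. The median log2 fold change over the members was 4.49 in B16F10 and 2.49 in 6694c2. The summed level of the family came to 350 ± 6.48 CPM (SD, n = 3) in B16F10, a ratio of 25.4 to vehicle, and to 322 ± 16.2 CPM in 6694c2, a ratio of 7.90. These comparisons use the same vehicle libraries as those of IFNβ. In B16F10, 4 of the 7 epithelial markers were called higher with IFNγ (median 0.84 on the log2 scale, summed levels of 16.5 to 38.8 CPM), and in 6694c2 none of the 7 melanocyte markers was called by edgeR and 0 had an unadjusted p under 0.05, with summed levels of 35.9 to 129 CPM.

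Aim2 had 1.87, 1.74 and 0.924 CPM with IFNγ in B16F10 and 6.45, 6.87 and 5.48 CPM in 6694c2, and overlapped vehicle in both. Its log2 fold change was -0.14 (95% interval -0.69 to 0.40, edgeR adjusted p = 0.823) and -0.04 (-0.33 to 0.26, edgeR adjusted p = 0.982).

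Ifi204 with IFNγ had 108, 109 and 103 CPM in B16F10 and 67.3, 61.1 and 59.1 CPM in 6694c2. Its log2 fold change was 5.19 ± 0.095 in B16F10 (edgeR adjusted p = 3.71e-187) and 2.49 ± 0.097 in 6694c2 (edgeR adjusted p = 1.87e-24). Ifi211 had 84.7, 77.8 and 87.0 CPM in B16F10 and 94.1, 91.8 and 89.3 CPM in 6694c2. Its levels with IFNγ were thus closer between the lines than in vehicle, and its log2 fold change was 5.15 ± 0.10 in B16F10 (edgeR adjusted p = 1.2e-172) and 2.42 ± 0.084 in 6694c2 (edgeR adjusted p = 3.12e-26). Ifi207 had 18.1, 15.5 and 16.2 CPM in B16F10, a log2 fold change of 6.18 ± 0.22 (edgeR adjusted p = 8.3e-97), and 2.78, 4.05 and 3.64 CPM in 6694c2, where it was 5.11 ± 0.39 (edgeR adjusted p = 3.85e-14). For Ifi207 the value was 7.51 in B16F10 without replicate 2 of its vehicle libraries and 5.83 in 6694c2 without replicate 3 of its vehicle libraries.

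Ifi203 had 115, 126 and 111 CPM in B16F10 and 97.5, 103 and 92.7 CPM in 6694c2. It rose by 4.49 ± 0.089 (edgeR adjusted p = 1.07e-175) and by 5.26 ± 0.11 (edgeR adjusted p = 7.38e-34) on the log2 scale. Mndal, with the same stretch in a RefSeq window inside its counted gene, had 19.1, 21.2 and 19.8 CPM in B16F10 and 44.1, 34.3 and 34.1 CPM in 6694c2. It rose by 4.38 ± 0.16 (edgeR adjusted p = 4.27e-92) and by 4.73 ± 0.165 (edgeR adjusted p = 3.12e-26). Ifi205 had 3.66, 3.10 and 3.87 CPM in B16F10 and 24.8, 20.2 and 20.5 CPM in 6694c2, and rose by 4.61 ± 0.38 (edgeR adjusted p = 4.62e-27) and 4.16 ± 0.16 (edgeR adjusted p = 1.97e-24). The value in B16F10 was 5.26 without replicate 3 of its vehicle libraries, and the figure given above for Ifi205 in B16F10 vehicle applies to it too. In B16F10, the share of 6694c2 transcripts found with IFNγ, applied as above, would come to 0.422 CPM of Ifi205, or 11.9% of its value.

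Ifi209 and Ifi213, which rose with IFNβ in both lines, were called with IFNγ in 1 case of 4. Ifi209 had 0.403, 0.704 and 0.352 CPM in B16F10 (log2 fold change 0.24 ± 0.48, edgeR adjusted p = 0.828) and 0.722, 1.10 and 0.714 CPM in 6694c2, where it was called at 1.40 ± 0.40 (edgeR adjusted p = 0.012). That call was lost without replicate 2 of the 6694c2 IFNγ libraries (1.21, edgeR adjusted p = 0.0606) or replicate 2 of its vehicle libraries (0.99, edgeR adjusted p = 0.139). Ifi213 had 5 reads with IFNγ in B16F10 against 1 in vehicle, a CPM ratio of 5.01 with an exact counting interval of 0.560 to 237, and 8 against 3 in 6694c2, a ratio of 2.15 with an interval of 0.517 to 12.6, so a change was not detectable at this depth (edgeR adjusted p = 0.379 and 0.61).

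The interferons were then set against each other within each line. In 6694c2, 8 of the 9 tested members were higher with IFNβ than with IFNγ, where 7.3% of all genes were. In B16F10, 4 were higher and 1 was lower, where 6.65% of all genes were called higher and 7.84% lower. The difference in 6694c2 was led by Ifi213, at 5.70 ± 0.39 on the log2 scale (edgeR adjusted p = 1.3e-15), and Ifi209, at 4.25 ± 0.20 (edgeR adjusted p = 3.76e-21). Ifi207 at 2.93 ± 0.15, Ifi204 at 2.82 ± 0.083 and Ifi205 at 2.52 ± 0.096 followed (edgeR adjusted p = 5.24e-20, 1.2e-28 and 1.58e-24). The smallest differences called were those of Ifi211 (1.78 ± 0.074), Mndal (1.34 ± 0.10) and Ifi203 (0.69 ± 0.075), with edgeR adjusted p of 3.07e-23, 2.38e-14 and 1.15e-09.

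In B16F10 the same members ranged from above to below 0. Ifi213 (2.92 ± 0.86, edgeR adjusted p = 0.00806) and Ifi209 (1.79 ± 0.40, edgeR adjusted p = 0.000185) were again first, but Ifi204 was higher with IFNβ by only 0.31 ± 0.063 (edgeR adjusted p = 3.43e-05). Ifi207 was higher by 0.32 ± 0.11 (edgeR adjusted p = 0.0258), and Ifi203 was lower with IFNβ, by 0.40 on the log2 scale (SE 0.065, edgeR adjusted p = 8.29e-08). Ifi211 (0.17, edgeR adjusted p = 0.0831), Mndal (-0.15, 0.401) and Ifi205 (-0.48, 0.215) were not called, although the Ifi205 groups did not overlap. Leaving out replicate 3 of the B16F10 IFNγ libraries ended the call of Ifi213 (2.39, edgeR adjusted p = 0.0757). The call of Ifi207 was lost without any one of 4 libraries (B16F10 IFNβ replicates 1 and 2, IFNγ replicates 2 and 3, with edgeR adjusted p of up to 0.128), in DESeq2 (adjusted p = 0.0935), with the filterByExpr minimum (edgeR adjusted p = 0.0721) and in one fit over all 24 libraries (edgeR adjusted p = 0.153). Ifi211 was called without replicate 3 of IFNβ (0.23, edgeR adjusted p = 0.00843) and with total counts as the scaling (0.23).

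The difference between the lines in this contrast was tested over all 24 libraries, in a comparison added after the data were seen. The gap between IFNβ and IFNγ was wider in 6694c2 for 7 of the 9 members, where 4.58% of all genes were called in that direction. Ifi205 differed by 2.99 ± 0.20 (edgeR adjusted p = 2.68e-15), Ifi207 by 2.61 ± 0.21 (1.93e-12), Ifi204 by 2.51 ± 0.11 (3.84e-21) and Ifi209 by 2.44 ± 0.46 (0.000194). Ifi211 differed by 1.61 ± 0.11, Mndal by 1.48 ± 0.15 and Ifi203 by 1.08 ± 0.11 (edgeR adjusted p = 7.55e-15, 5.81e-10 and 1.11e-09). Ifi213 had a value of 2.79 ± 1.13 that was not called (edgeR adjusted p = 0.138), and Aim2 was at -0.02 (edgeR adjusted p = 1.0).

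**Figure D4:**
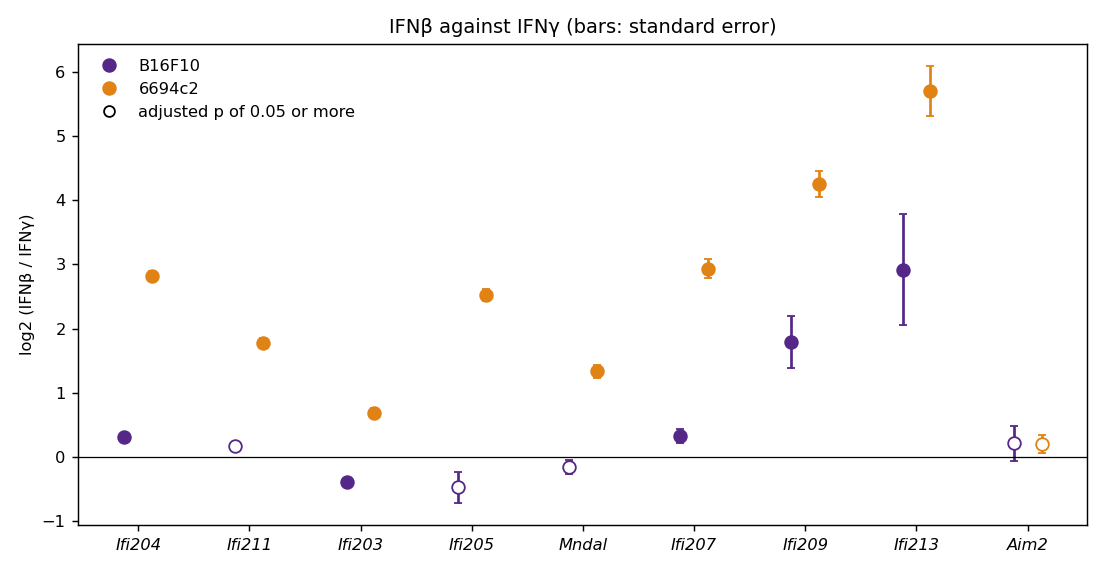
Log2 ratio of IFNβ to IFNγ for the 9 tested members in both lines, with bars for the standard error and open points where the edgeR adjusted p was 0.05 or more. The 6694c2 points run from 0.69 (Ifi203) to 5.70 (Ifi213) apart from Aim2, and the B16F10 points of Ifi203, Ifi204, Ifi205, Ifi207, Ifi211 and Mndal lie between -0.48 and 0.32.

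The response to each interferon against vehicle was compared between the lines in the same way. For IFNγ, 3 of 9 members differed (9.47% of all genes did). The fold change was smaller in 6694c2 for Ifi204, by a difference of -2.72 ± 0.16 (edgeR adjusted p = 1e-16), and for Ifi211, by -2.75 ± 0.16 (edgeR adjusted p = 8.96e-17), and both genes were higher in 6694c2 vehicle. It was larger in 6694c2 for Ifi203, by 0.75 ± 0.19 (edgeR adjusted p = 0.00503), a call that was lost without replicate 2 of the 6694c2 vehicle libraries (0.60, edgeR adjusted p = 0.0572). For IFNβ, 5 of 9 members differed (12.1% of all genes did). Ifi209 responded more in 6694c2 by 3.59 ± 0.55 (edgeR adjusted p = 7.92e-06), Ifi203 by 1.83 ± 0.18 (5.44e-10) and Mndal by 1.81 ± 0.32 (7.01e-05). Ifi205 did so by 2.52 ± 0.67 (edgeR adjusted p = 0.0083), a call that was lost without replicate 3 of the B16F10 vehicle libraries (1.92, edgeR adjusted p = 0.239). Ifi211 responded less, by -1.14 ± 0.16 (edgeR adjusted p = 1.54e-06), and Ifi204 was not called, at -0.21 (edgeR adjusted p = 0.461).

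The STING agonist changed few members. In B16F10, 3 of the 9 tested were called higher, where 1.93% of all genes were. Ifi211 went from 1.63, 2.37 and 2.89 CPM to 4.24, 3.81 and 3.87 CPM, a log2 fold change of 0.75 ± 0.16 (edgeR adjusted p = 0.000206). Ifi204 went from 2.34, 3.09 and 3.25 CPM to 4.18, 4.16 and 4.14 CPM (0.50 ± 0.14, edgeR adjusted p = 0.0228). Ifi203 went from 4.26, 5.98 and 5.28 CPM to 7.05, 8.01 and 6.47 CPM (0.46 ± 0.12, edgeR adjusted p = 0.00587). Mndal stood at 1.61, 1.52 and 1.59 CPM, above its 0.670, 1.04 and 1.10 CPM in vehicle, without a call (0.71 ± 0.25, edgeR adjusted p = 0.0934). The median over the 9 members was 0.46 on the log2 scale.

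These changes were small beside the interferon response. The summed family level was 19.5 ± 1.08 CPM (SD, n = 3) against 13.8 ± 2.11 in vehicle, a ratio of 1.42. Aim2 had 1.79, 1.82 and 1.70 CPM and a log2 fold change of 0.08 (95% interval -0.47 to 0.62, edgeR adjusted p = 0.988). Ifi205, Ifi207, Ifi209 and Ifi213 overlapped vehicle. The call of Ifi203 was lost without replicate 2 of the STING agonist libraries (0.37, edgeR adjusted p = 0.165) or replicate 1 of vehicle (0.35, edgeR adjusted p = 0.16), and that of Ifi204 without any one of the 3 STING agonist libraries or replicate 1 of vehicle (edgeR adjusted p of up to 0.267) and in one fit over all 24 libraries (0.51, edgeR adjusted p = 0.0945). Ifi211 was called in each of those fits.

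The same B16F10 libraries held more of the transcripts specific to 6694c2, and the source of those transcripts was not tested. The 7 epithelial markers summed to between 102 and 135 CPM in these libraries, against 13.7 to 19.5 CPM in vehicle, and the mean share of 6694c2-specific transcripts was 0.797 percentage points above that of vehicle. The median of the epithelial markers was 2.37 on the log2 scale above vehicle, with 5 of 7 called higher. If that extra share had the family levels of 6694c2 with IFNβ it would add 2.48 CPM of Ifi211, 3.47 of Ifi204, 1.24 of Ifi203 and 0.743 of Mndal, beside measured increases of 1.68, 1.27, 2.01 and 0.638 CPM. With the levels of 6694c2 vehicle it would add 0.138 CPM of Ifi211, 0.0900 of Ifi204, 0.0205 of Ifi203 and 0.0115 of Mndal. Its part in the result was not tested.

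In 6694c2, none of the 9 tested members was called with STING agonist in edgeR or in DESeq2, where edgeR called 0.36% of all genes. An unadjusted edgeR p under 0.05 was found for 2 members, and the share of all genes at that unadjusted level is not given here. All groups overlapped those of vehicle. Of the 7 melanocyte markers, 5 were called lower in these libraries (summed levels of 18.5 to 22.3 CPM). Ifi204 had 10.0, 11.8 and 10.5 CPM (log2 fold change -0.06) and Ifi211 had 17.3, 16.5 and 17.4 CPM (-0.02). Aim2 had 8.11, 6.74 and 8.91 CPM, a log2 fold change of 0.31 with a 95% interval of 0.024 to 0.59 before adjustment (edgeR adjusted p = 0.607), and Ifi203 was at 0.32 ± 0.16 (edgeR adjusted p = 0.639). The summed level was 42.5 ± 1.10 CPM (SD, n = 3) against 40.8 ± 4.94 CPM. The response to STING agonist differed between the lines for 1 of 9 members, Ifi211, by -0.78 ± 0.20 in 6694c2 against B16F10 (edgeR adjusted p = 0.0179), where 2.12% of all genes differed. That call was lost without any one of 4 libraries, replicates 1 and 3 of B16F10 STING agonist and replicates 1 and 2 of B16F10 vehicle (edgeR adjusted p of up to 0.145).

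Levels of different members were compared per length of exon, as RPKM (CPM divided by the exon length in kilobases). Ifi211 was the first member in each of the 8 groups. In B16F10 vehicle, Ifi211 (1.29 RPKM), Ifi204 (0.812) and Ifi203 (0.771) overlapped their neighbours in this order, with Aim2 next at 0.479 and not overlapping Ifi203. With IFNβ the order in B16F10 was Ifi211 at 51.9, Ifi204 at 36.8 and Ifi203 at 13.2 RPKM, then Ifi207 (5.92) and Mndal (5.17), which overlapped. In 6694c2 vehicle it was Ifi211 at 9.72, Ifi204 at 3.17 and Aim2 at 1.83 RPKM. With IFNβ, Ifi211 reached 174 and Ifi204 122 RPKM there, and Ifi205 (29.5) and Mndal (27.1), which overlapped, stood before Ifi203 (23.1), Ifi207 (7.56), Ifi209 (4.36), Aim2 (1.99) and Ifi213 (0.987).

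The make-up of the family therefore shifted with interferon. Aim2 made up 12.9% of the summed RPKM of the family in B16F10 vehicle and 0.437% with IFNβ, and 11.5% and 0.509% in 6694c2, while its own level stayed where it was. Ifi203 made up 2.39% in 6694c2 vehicle and 14.2% with IFNγ, and Mndal 2.55% and 10.6%, so these members took larger shares with IFNγ than with IFNβ (5.92 and 6.93%). Ifi204 had 17.1% of the family in 6694c2 with IFNγ and 31.3% with IFNβ. Ifi205 made up 7.57% with IFNβ in 6694c2 and 0.529% in B16F10. The share of Ifi211 was 33.01 ± 4.20% (SD, n = 3) in B16F10 vehicle and 61.2 ± 3.96% in 6694c2 vehicle, and the reads it has in common with Ifi205 and Ifi204 limit those shares.

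**Figure D5:**
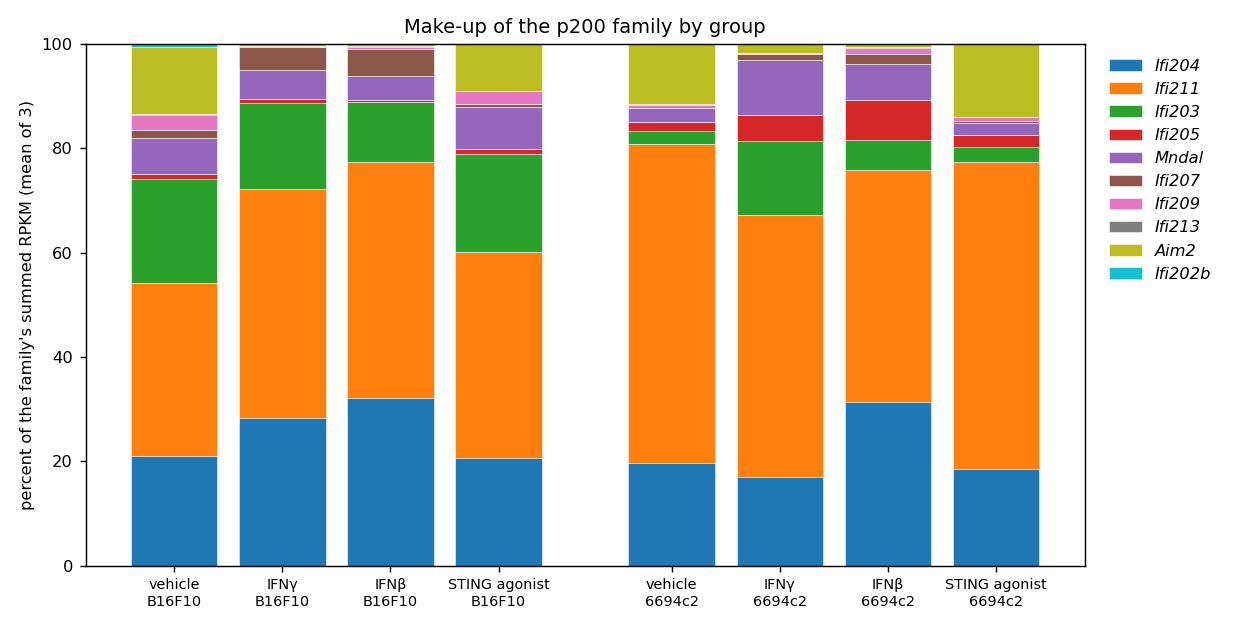
Percent of the summed RPKM of the 10 members taken by each, as stacked bars for the 8 groups (mean of 3 libraries). Ifi211 is the widest block in every group, and the Aim2 block, 12.9% in B16F10 vehicle and 11.5% in 6694c2 vehicle, shrinks to under 2% with either interferon.

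The 4 other p200 genes of the cluster (Ifi206, Ifi208, Ifi214 and the pseudogene Ifi203-ps) also rose with the interferons in most cases. With IFNγ, 3 of 4 were called higher in each line, with IFNβ 3 of 4 in B16F10 and 4 of 4 in 6694c2, and with STING agonist none in either. Ifi206 averaged 0.109 CPM in B16F10 vehicle, 2.94 with IFNγ (4.64 ± 0.38 on the log2 scale) and 5.39 with IFNβ (5.53 ± 0.35). In 6694c2 it had 3 reads in vehicle against 1947 with IFNβ, a CPM ratio of 421 (exact 95% counting interval 144 to 2044). Ifi208, whose promoter stretch is that of Ifi213, had no reads in B16F10 vehicle and 139 with IFNβ, at least 43.8-fold higher when vehicle is set to a floor of 3 reads over the group. In 6694c2 it had 1 read against 522 with IFNβ, a ratio of 339 (60.5 to 13410). Ifi214, the near copy of Ifi209, had 1 read against 66 in 6694c2 with IFNβ, a ratio of 42.8 (7.43 to 1717).

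The 3 protein-coding genes nearest to the cluster on each side were Mptx2, Ackr1 and Cadm3 and the olfactory receptors Olfr433, Olfr432 and Olfr430. Cadm3 and Olfr433 were the ones with 10 or more reads over the 24 libraries, and neither was called in any comparison by edgeR, with Olfr433 closest at 11 reads in 6694c2 with IFNβ (edgeR adjusted p = 0.0877).

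Inflammasome genes were read as a list of 8, of which 7 were tested: Pycard and Casp1, which act with AIM2, and Gsdmd, Il1b, Il18, Casp4, Zbp1 and Nlrp3, the sensor of another inflammasome. In B16F10, 5 rose with IFNγ, 4 with IFNβ and 1, Zbp1, with STING agonist (0.77 on the log2 scale), and in 6694c2 4 rose with IFNγ, 4 with IFNβ and none with STING agonist. In B16F10, Zbp1 went from 1.92 CPM in vehicle to 3.40 CPM with STING agonist, beside 196 CPM in 6694c2 with IFNβ. The part of the 6694c2 transcripts found in those B16F10 libraries was not tested. Pycard, the adaptor ASC, averaged 1.74 CPM in B16F10 vehicle and rose with IFNγ to 3.57 CPM (1.03 ± 0.23 on the log2 scale, edgeR adjusted p = 0.000116), and in 6694c2 vehicle it had 8 reads over 3 libraries (0.159 CPM). Casp1, the inflammasome protease, was at or under 0.448 CPM in B16F10 with vehicle or either interferon and was not called there, whereas in 6694c2 it rose from 0.606 CPM to 11.1 CPM with IFNγ (4.20 on the log2 scale) and 3.07 CPM with IFNβ (2.39). Gsdmd, which forms the membrane pore of pyroptosis, rose from 1.204 to 22.2 CPM with IFNγ (4.21) and 7.68 CPM with IFNβ (2.69) in B16F10, and from 58.2 to 162.5 CPM (1.5) and 147 CPM (1.38) in 6694c2.

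Casp4, which encodes the mouse protein caspase-11 that binds lipopolysaccharide, rose in both lines with IFNγ (3.77 in B16F10 and 3.72 in 6694c2 on the log2 scale) and IFNβ (2.42 and 2.7). Zbp1, a sensor of left-handed nucleic acid, rose by 7.61 and 6.59 with IFNγ and by 6.55 and 7.47 with IFNβ. Il18, a cytokine cleaved by caspase-1, rose in B16F10 with both interferons (1.80 and 1.79). Il1b, the other such cytokine, had 2 reads in all and was not tested.

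Of the 8 genes listed around the path from cytosolic DNA to interferon, 6 were tested. In B16F10, 3 rose and 1, Irf3, fell with IFNγ (-0.24, edgeR adjusted p = 0.0236), 4 rose with IFNβ and none changed with STING agonist, and in 6694c2 4 rose with IFNγ, 3 with IFNβ and 1, Irf7, with STING agonist (1.62 ± 0.206 on the log2 scale, edgeR adjusted p = 2.91e-06). That level of Irf7 was 2.95 CPM, beside 0.9499 CPM in vehicle and 962 CPM with IFNβ in the same line. RNA from other libraries of the same line cannot be told apart in these counts. Cgas, the enzyme that makes the natural STING ligand, rose in B16F10 from 13.4 CPM to 16.2 with IFNγ (0.27, edgeR adjusted p = 0.0364) and 24.3 with IFNβ (0.86, edgeR adjusted p = 4.98e-16), and in 6694c2 from 7.04 CPM to 12.2 (0.80, edgeR adjusted p = 2.3e-06) and 22.8 (1.73, edgeR adjusted p = 3.11e-16). Sting1, the receptor of the agonist, was at 28.8 CPM in B16F10 vehicle and 1.92 CPM in 6694c2 vehicle. It rose with IFNγ to 53.2 CPM in B16F10 (0.88) and 6.94 CPM in 6694c2 (1.86 ± 0.205, edgeR adjusted p = 1.22e-09). With IFNβ it came to 32.9 CPM in B16F10 (0.20, edgeR adjusted p = 0.0457) and 2.73 CPM in 6694c2, where it was not called (0.53, edgeR adjusted p = 0.0935).

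Irf7, the factor that amplifies type I interferon, rose with IFNβ from 0.916 to 2.61 CPM in B16F10 (1.49 on the log2 scale) and from 0.9499 to 962 CPM in 6694c2 (10.01), where IFNγ took it to 76.9 CPM (6.34). The B16F10 libraries with IFNβ held 6694c2-specific transcripts at a mean of 0.437% of their own level. Their part in the B16F10 value of Irf7, beside 962 CPM in 6694c2, was not tested. Ifnb1 had 2 reads in all and Trex1 was listed at 0 in every library, and neither was tested. Of the interferon signalling genes, Stat2, Irf9 and Irf1 rose with both interferons in both lines. Irf9, the DNA-binding subunit of the complex that reads the ISRE, rose by 0.87 with IFNγ and 1.32 with IFNβ in B16F10 and by 3.47 and 4.35 in 6694c2. Stat2 rose by 3.78 and 4.16 and by 3.56 and 4.70, and Irf1 by 5.69 and 1.68 and by 4.70 and 2.28. With STING agonist these genes rose in B16F10 (Stat2 by 1.04, Irf1 by 0.44 and Irf9 by 0.39) and none of them was called in 6694c2.

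Across the 12 libraries of each line, the genes whose log2 CPM followed the mean of the 9 tested members most closely were Ifit2 (Pearson r = 0.9988), Daxx (0.9979) and Tor1aip2 (0.9966) in B16F10, of 9213 genes compared, and Spats2l (0.9981), Lgals3bp (0.9981) and Herc6 (0.9976) in 6694c2, of 9088. These libraries fall into treatment groups, so the values describe shared differences between groups.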

How the data were processed

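The deposited files hold counts of reads per gene, with gene lengths, made by the authors from paired-end libraries with cutadapt 1.14, STAR 2.7.9a and Rsubread. The labels list mm10. The annotation, strand setting and handling of reads with several matches are not given in the sources used here. Members were matched by symbol, and coordinates are those of GRCm38 with GENCODE. The members and lists were chosen with earlier results of these data known. By the rule for named genes, all members were named, listed genes were named for a call with an absolute log2 fold change over 1, with Pycard, Casp1, Gsdmd, Cgas and Sting1 in any case, and the 3 genes most like the family were named in each line.

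Genes with 10 or more reads over the 24 libraries were kept (21138 genes). Each line was fitted in edgeR 4.0.16 (R 4.3.3) with TMM factors and the quasi-likelihood test, line differences were fitted over all 24 libraries, and p-values were adjusted by the Benjamini-Hochberg method over all genes, with calls at adjusted p under 0.05. Printed CPM and RPKM use TMM library sizes over all 24 libraries. Intervals of log2 fold changes are 1.96 standard errors to each side, and SE is the absolute log2 fold change divided by the root of F. DESeq2 1.42.0, other scalings and filters, a replicate block and leaving out each library were the alternatives. The fit was tested on simulated data. Replicate numbers did not pair the libraries (correlations of deviations from -0.12 to 0.13 in B16F10 and from -0.19 to 0.17 in 6694c2). The 6 single-cell samples were not analysed here. 1 gene of the interferon signalling list and part of the 6694c2 genotype are not reported here.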

Additional observations from a re-analysis of the deposited data

Results flagged for a closer look

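The members below responded differently in the 2 lines by the test of the difference itself (edgeR, over all 24 libraries, 6694c2 minus B16F10 on the log2 scale). For IFNγ against vehicle, Ifi204 differed by -2.72 and Ifi211 by -2.75, and Ifi203 by 0.75. For IFNβ against vehicle, Ifi209 differed by 3.59, Ifi203 by 1.83, Mndal by 1.81, Ifi205 by 2.52 and Ifi211 by -1.14. For STING agonist against vehicle, Ifi211 differed by -0.78. For IFNβ against IFNγ, Ifi205 differed by 2.99, Ifi207 by 2.61, Ifi204 by 2.51, Ifi209 by 2.44, Ifi211 by 1.61, Mndal by 1.48 and Ifi203 by 1.08, each with a wider gap in 6694c2. These are the differences given in the report, with no new evidence added.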

How the results depend on the processing

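The 117 member results were recomputed under 1809 alternatives in all. In 1779 of them the side of the threshold was kept, in 23 the call was lost, in 7 a call was gained and in none was a called value reversed. Among the 1779, the sign changed in 37, over 23 results that were called neither in the report nor under the alternative. Of the 117 results, 105 kept their call under each alternative run and 12 did not. The number of members called with STING agonist in B16F10, 3, was 1, Ifi203, when members whose groups compared had means under 2% of their highest group were left out, and between 1 and 3 when single libraries were left out. The call of Ifi203 was itself lost without replicate 2 of those STING agonist libraries or replicate 1 of vehicle. The number called for IFNβ against IFNγ in B16F10, 5, was between 3 and 6 with single libraries left out, the lowest without replicate 3 of B16F10 IFNγ. The number of members whose STING agonist response differed between the lines, 1, was 2 with no filter on low counts and between 0 and 2 with single libraries left out. The causes were not tested. With the replicate numbers as a block, 6 members in place of 5 differed between the vehicle groups, through Mndal at 0.77 (edgeR adjusted p = 0.0297), and the block changed no other call of a member. Scaling by total counts moved the median of all genes by -0.18 for 6694c2 against B16F10 vehicle. It also shifted the split of all genes called higher and lower, from 2188 and 1662 to 1652 and 2251 for IFNβ in 6694c2, from 408 and 324 to 453 and 188 for STING agonist in B16F10, from 1406 and 1658 to 2208 and 1206 for IFNβ against IFNγ in B16F10, from 1303 and 1248 to 947 and 1740 for the difference between the lines in the IFNβ response and from 969 and 817 to 685 and 1152 for that in IFNβ against IFNγ. Depth limits Ifi202b in both lines and, apart from IFNβ, Ifi213 in both lines.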
